A study of Mus musculus with 12 samples.

Results

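The mature miRNAs of AKR-2B cells, a mouse fibroblast line, were compared after 2 days of growth in soft agar with 25 ng/mL TGFβ or with vehicle. Soft agar denies cells a surface to attach to, so those that grow form colonies within it. The comparison used 2 of the 6 miRNA libraries of the study, 1 per condition, and the vehicle and TGFβ libraries of days 4 and 8 served to tell early differences from lasting ones. All of these groups shared the line, the agar and RNA extracted as total RNA from recovered colonies, and the labels name no allele and no agent other than TGFβ. The model is therefore 1 established line, and a level is an average over all cells of the recovered colonies, so that fewer cells of a type and less RNA per cell cannot be told apart. In the day 2 pair 510 of the 1281 mature miRNAs of the table were seen at least at 1 read, and the 362 with a mean of 10 or more CPM over the pair are called measured here. CPM are reads relative to library size, scaled with trimmed mean of M-values (TMM) factors. The measured miRNAs held 99.923% of the reads of the pair.

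The vehicle library held 108716 reads and the TGFβ library 178877, the smallest totals of the 6. A measured miRNA had a median of 34 reads in the pair, 143 had 20 or fewer and 121 had 100 or more. With 1 library per condition no difference has a replicate check, so no p-value is given. Each ratio of scaled reads carries an exact conditional binomial 95% interval, which covers counting error alone: the reads carry no molecular identifiers, so they cannot be taken as independent molecules. For 100 measured miRNAs (27.62%) this interval lay between 0.5 and 2, and for 190 it included 1 and also reached a 2-fold difference in at least 1 direction, so that a 2-fold difference was not detectable at this depth. A count of 3 reads, used as the limit that a count of 0 allows, equals 24.3 CPM in the vehicle library and 17.7 CPM in the TGFβ library.

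miRNAs are short RNAs cut from hairpin precursors, 1 from each arm (5p and 3p), and they pair with target mRNAs mainly through the seed, bases 2 to 8. TGFβ signals through receptor kinases to SMAD proteins, which act on transcription and are also known to bind the processing complex of some precursors, miR-21 among them. In fibroblasts TGFβ is known for driving matrix synthesis. miR-21 is known as a growth- and fibrosis-promoting miRNA, and the miR-200 family is known for marking epithelium and repressing the Zeb transcription factors.

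The labelled cell type was checked with marker miRNAs. All 9 fibroblast markers had reads in both libraries, 18835 in the vehicle and 45927 in the TGFβ library in sum. These sums are unscaled, and miR-21a-5p alone made up 6192 and 26528 of them. By the calls defined below, 2 of the 9 were higher and 2 lower, so the sums show no shared rise of the markers. Of 7 blood markers, 6 were at 0 in both libraries, and the other, miR-486-5p, had 144 and 127 reads. The endothelial markers had 0 and 4 reads, the nerve markers 107 and 234 and the striated muscle markers 11 and 39. The 7 epithelial markers together had 26 reads with vehicle and 167 with TGFβ, against 6 to 26 in the 4 later libraries. Of the 7 markers, 3 were at 0 with vehicle and 1 with TGFβ.

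The sequences that carry the results are shown with the seed in capitals, written 5′ to 3′ and taken from RefSeq for build GRCm38.p6, in which 277 of the 362 measured miRNAs were matched by name. The set starts with the miRNAs that differed in the same direction at all 3 days.
miR-21a-5p: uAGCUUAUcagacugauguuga
miR-455-5p: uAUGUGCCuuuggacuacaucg
miR-455-3p: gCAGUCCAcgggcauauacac
miR-224-5p: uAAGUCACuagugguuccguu
miR-125b-1-3p: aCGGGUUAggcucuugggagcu
miR-1249-3p: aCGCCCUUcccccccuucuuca
miR-1224-5p: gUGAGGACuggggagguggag
The next 3 have 1 seed and took different courses at day 2.
miR-92b-3p: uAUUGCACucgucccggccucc
miR-92a-3p: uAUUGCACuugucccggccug
miR-25-3p: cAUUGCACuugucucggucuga
The following 3 share another seed, and miR-148a-3p and miR-152-3p were higher with TGFβ at day 2 only.
miR-148a-3p: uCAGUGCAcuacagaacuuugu
miR-152-3p: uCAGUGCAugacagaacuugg
miR-148b-3p: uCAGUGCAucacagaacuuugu
The last set holds miRNAs with at least 5 times the CPM of any other library in the TGFβ library of day 2, then miR-10a-5p, shown for its seed shared with miR-10b-5p, and miR-23a-3p, which was lower at day 2 only.
miR-200b-3p: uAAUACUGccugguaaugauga
miR-200c-3p: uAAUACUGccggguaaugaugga
miR-200a-3p: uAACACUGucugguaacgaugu
miR-204-5p: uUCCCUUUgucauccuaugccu
miR-452-5p: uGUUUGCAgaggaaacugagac
miR-10b-5p: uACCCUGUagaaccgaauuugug
miR-10a-5p: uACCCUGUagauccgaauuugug
miR-23a-3p: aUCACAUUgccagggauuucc

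At day 2, 43 of 362 measured miRNAs (11.9%) were at least 2-fold higher with TGFβ and 51 (14.1%) at least 2-fold lower, by a log2 change of CPM with a prior count of 2. Of these, 24 (6.63%) were higher and 25 (6.91%) lower with a counting interval that excluded a ratio of 1, and these 49 are called higher or lower below. The other 45 had a median of 5 reads in the pair. By the same rule 65 miRNAs (17.8%) were higher and 49 (13.4%) lower at day 4, of 366 measured, and 72 (19.9%) and 77 (21.3%) at day 8, of 361. The later vehicle and TGFβ libraries were deeper, with 232107 and 459795 reads at day 4 and 414943 and 1387785 at day 8. More reads narrow the interval, so these shares cannot be compared between days as a size of response. Scaling to total reads moved the median log2 change at day 2 by -0.25 and turned the split of 43 and 51 into 33 higher and 82 lower, and that of 24 and 25 into 14 and 45. The log2 changes spread over an interquartile range of 1.18 at day 2, against 1.65 at day 8.

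**Figure D1:**
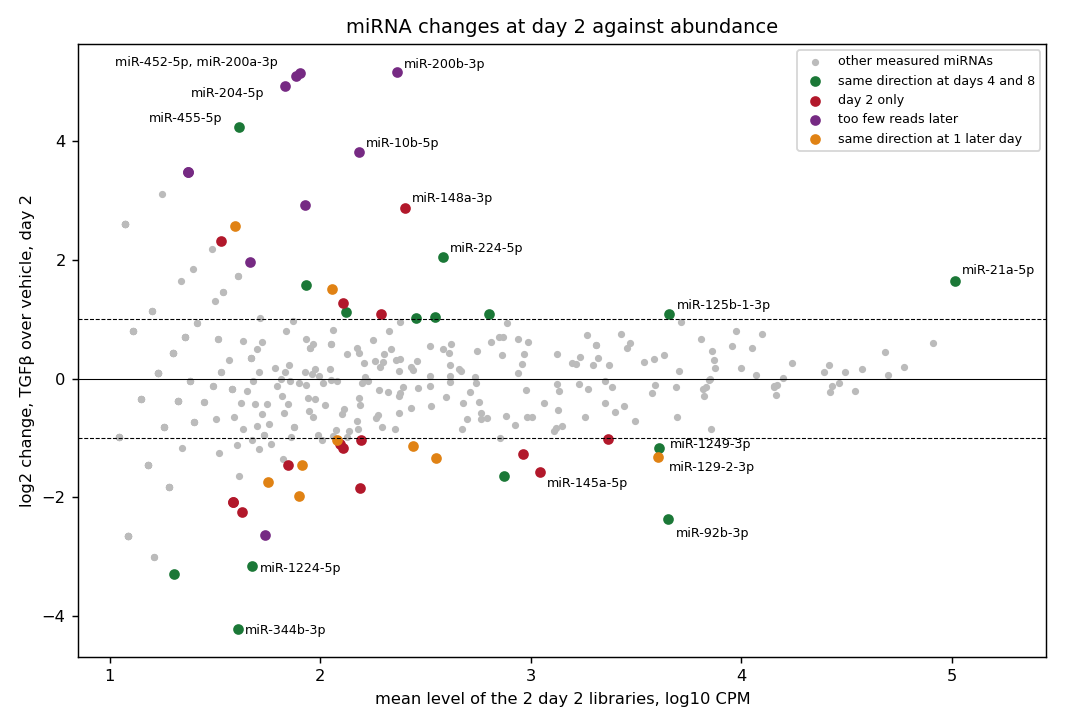
Log2 change of the 362 measured miRNAs at day 2 (vertical axis, TGFβ over vehicle, 1 library each) against their mean level (horizontal axis, log10 CPM). Coloured points are the 49 called miRNAs by their course at days 4 and 8, dashed lines mark a 2-fold difference, and miR-21a-5p lies at the far right with a log2 change of 1.64.

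Most called miRNAs had few reads. Their median was 35 reads in the pair, and 22 of the 49 had 30 or fewer. miR-21a-5p took 5.696% of the reads of the vehicle library and 14.83% of the TGFβ library. The 24 called higher held 6.193% of the vehicle signal and 15.93% of the TGFβ signal in CPM, and the 25 called lower held 3.283% and 0.9671%. Among the 10 most abundant miRNAs of the pair miR-21a-5p, at a mean of 103285 CPM, was the only one called. Of the other 9, miR-99b-5p (81767 CPM) and miR-214-3p (48109 CPM) had log2 changes of 0.59 and 0.45, and 7 lay between -0.21 and 0.21.

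The 49 were sorted by their later course. There were 15 at least 1.5-fold in the same direction at days 4 and 8, 9 of them higher and 6 lower. Another 15 were seen at day 2 only, 4 higher and 11 lower, meaning that at both later days they differed by less than 1.5-fold or the other way. Of the rest, 10 (9 higher, 1 lower) had a mean under 10 CPM in a later pair, and 9 (2 higher, 7 lower) had the same direction at 1 later day. No difference between days was tested, since each day has 1 library per condition.

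miR-21a-5p led the lasting increases by level. It had 6192 reads with vehicle and 26528 with TGFβ at day 2, a ratio of 3.12 (3.03 to 3.21), and log2 changes of 1.64, 2.10 and 1.98 at days 2, 4 and 8, so that most of its later difference was present at day 2. Its sequence lies at chr11:86584120-86584141 on the minus strand, in an exon of Vmp1. The opposite arm, miR-21a-3p, had 1 read in each day 2 library.

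Both arms of miR-455, a miRNA known from cartilage, were already higher at day 2. The 3p arm went from 28 to 80 reads, a ratio of 2.08 (1.34 to 3.32), with log2 changes of 1.04, 2.77 and 3.15 over the 3 days. The 5p arm had 0 reads with vehicle and 14 with TGFβ, at least 3.40-fold higher against the limit of 3 reads. The 3p arm lies at chr4:63256904-63256924 in an intron of the collagen gene Col27a1. In the authors' deposited table of mRNA ratios, read here as TGFβ over vehicle since the header gives no direction, Col27a1 stood at 3.74 at day 2, 6.43 at day 4 and 7.45 at day 8.

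miR-224-5p, known from liver tumours, went from 18 to 105 reads at day 2, a ratio of 4.25 (2.56 to 7.44), and had log2 changes of 1.79 and 2.69 later. It lies at chrX:72261085-72261105, minus strand, in an intron of Gabre, 1193 bases from miR-452. miR-452-5p had 0 reads with vehicle and 27 with TGFβ at day 2, at least 6.55-fold higher, but no read in either library of day 4 and 0 and 2 reads at day 8. The reads of miR-452-5p thus came almost only from the TGFβ library of day 2. miR-224-5p had 54 and 63 reads in the later vehicle libraries and 270 and 1109 in the later TGFβ libraries. The miRNA gene Mir452 stood at a ratio of 5 at day 2 and 7 at day 4 in the authors' deposited table, with the depth behind these ratios unknown.

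The remaining 5 lasting increases were miR-125b-1-3p, miR-25-5p, miR-350-5p, miR-206-3p and miR-195a-3p. miR-125b-1-3p, the arm opposite to the abundant miR-125b-5p, went from 360 to 1052 reads, a ratio of 2.13 (1.88 to 2.40), and its log2 changes were 1.09, 0.85 and 0.75. miR-25-5p, of the miR-106b-25 cluster inside the replication gene Mcm7, went from 50 to 147 reads (2.14, 1.54 to 3.01). miR-350-5p went from 23 to 65 reads, miR-206-3p, a muscle miRNA, from 10 to 31, and miR-195a-3p from 5 to 22. All but miR-195a-3p (log2 change 1.57) lay near the 2-fold limit. Scaled to total reads these 5 and miR-455-3p lost their call, with miR-125b-1-3p at a log2 change of 0.83 and miR-455-3p at 0.79.

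Among the 6 lasting decreases were both arms of miR-92b. miR-92b-3p had 932 reads with vehicle and 249 with TGFβ, 5.14-fold lower, with a ratio of 0.194 (0.168 to 0.224). Its log2 changes of -2.36, -1.85 and -1.97 put the largest difference at day 2. miR-92b-5p went from 140 to 61 reads, with log2 changes of -1.64, -1.35 and -1.33. The 3p arm lies at chr3:89227126-89227147 on the minus strand, in no gene of the annotation on that strand, and in the authors' deposited table the gene Mir92b had a ratio of 0.143 at day 2 and 0.111 at day 4.

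miR-1249-3p took another course. It had 692 and 423 reads at day 2, 2.25-fold lower (ratio 0.445, 0.393 to 0.503), and its log2 changes were -1.17, -0.71 and -2.54. miR-1224-5p, a mirtron cut from an intron of Vwa5b2, had 11 reads with vehicle and 1 with TGFβ, a ratio of 0.0662 (0.00154 to 0.455). It had 45 and 142 reads in the later vehicle libraries and 0 in both later TGFβ libraries. miR-344b-3p had 10 reads with vehicle and 0 with TGFβ, at least 4.58-fold lower, and for its host A230057D06Rik the authors' deposited table gave ratios of 0.0753, 0.0297 and 0.0405 over the 3 days. miR-450b-3p, with 5 reads against 0, was at least 2.29-fold lower.

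**Figure D2:**
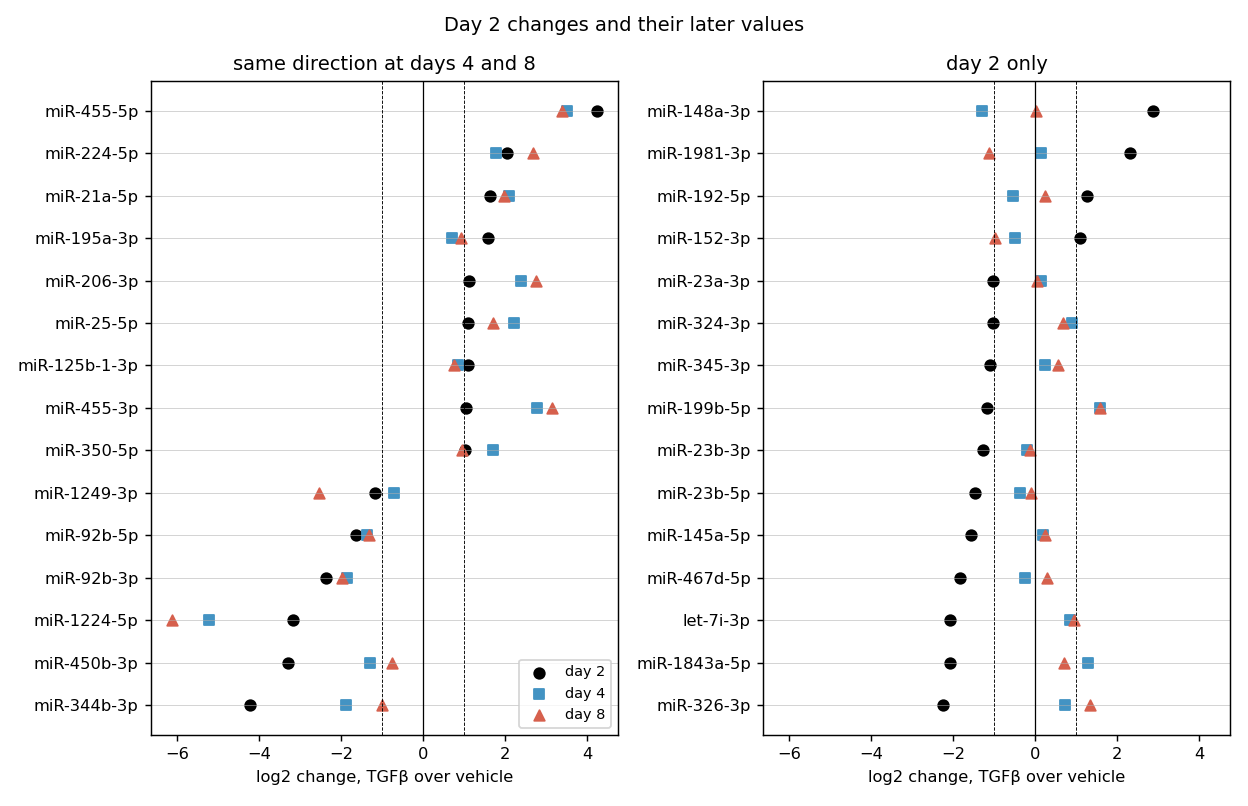
Log2 change (TGFβ over vehicle, horizontal axis) at days 2, 4 and 8 for the 15 called miRNAs with the same direction at all 3 days (left) and the 15 seen at day 2 only (right), 1 point per pair of libraries. Dashed lines mark a 2-fold difference; on the right the day 2 points lie outside them and the later points mostly between them, while miR-199b-5p lies at -1.17 at day 2 and at 1.57 at both later days.

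Of the day 2 differences not seen later, the 11 decreases were led in reads by miR-145a-5p, miR-23a-3p and miR-23b-3p. miR-145a-5p, known as a marker of smooth muscle and contractile cells, had 205 reads with vehicle and 94 with TGFβ, 3.00-fold lower (ratio 0.334, 0.259 to 0.428). Its log2 changes at days 4 and 8 were 0.20 and 0.23. miR-143-3p, its cluster partner, had 1887 and 2410 reads at day 2 and a log2 change of -0.11, so the members of this cluster differed unequally in the pair.

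miR-23a-3p and miR-23b-3p, products of separate clusters that each also encode a miR-27 and miR-24, were both lower at day 2. miR-23a-3p had 384 and 260 reads (ratio 0.493, 0.419 to 0.578) and miR-23b-3p 161 and 91 (0.411, 0.315 to 0.535). The other arm of the second precursor, miR-23b-5p, had 13 and 6 reads and was also called lower. At days 4 and 8 miR-23a-3p had log2 changes of 0.15 and 0.03 and miR-23b-3p of -0.20 and -0.13. Along the cluster of miR-23a, miR-27a-3p had a log2 change of -0.40 and miR-24-3p, shared by both clusters, of 0.00, with 1956 and 2696 reads. miR-27b-3p, in the cluster of miR-23b, lay at -0.72.

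The other 7 decreases had fewer reads. miR-199b-5p, a miRNA of mesenchymal cells, had 22 and 13 reads at day 2 and a ratio of 0.430 (0.199 to 0.892), and later lay on the other side, with 50 and 215 reads at day 4 (ratio 3.02) and 165 and 1313 at day 8 (3.00). It was the only one of the 49 called the other way at both later days. miR-467d-5p, which shares reads with other members of a repeat-rich family and is uncertain as a single miRNA, had 30 and 11 reads. miR-324-3p (26 and 17), miR-345-3p (21 and 13), miR-326-3p (9 and 2), let-7i-3p (8 and 2) and miR-1843a-5p (8 and 2) made up the rest.

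The rule that chose these 11 decreases favours a low rank of the TGFβ library of day 2, so ranks over the 6 libraries are given as a description. In 10 of the 11 that library had the lowest CPM of all 6 libraries, and in 2 of the 11 the vehicle library of day 2 had the highest. miR-145a-5p, for example, stood at 554 CPM in the TGFβ library of day 2 and at 1661 CPM in the vehicle library of day 2. The exception to the lowest rank was miR-1843a-5p, whose vehicle library of day 4 lay lower.

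**Figure D3:**
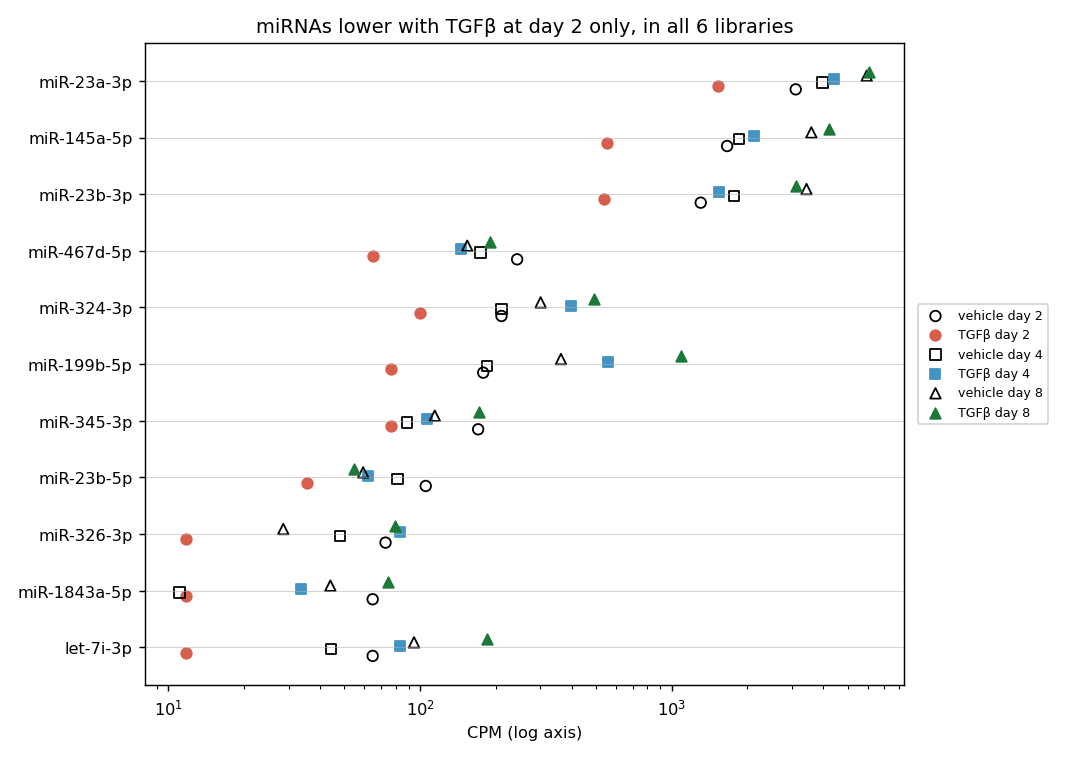
CPM (log axis) of the 11 miRNAs lower with TGFβ at day 2 only, in each of the 6 miRNA libraries. The filled red circle of the TGFβ library of day 2 is the lowest point in 10 of 11 lines.

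The 4 increases seen at day 2 only were led by miR-148a-3p, known from liver and from the repression of DNA methyltransferases. It had 7 reads with vehicle and 76 with TGFβ, a ratio of 7.90 (3.65 to 20.3), against 14 and 7 reads at day 4 and 15 and 40 at day 8. miR-152-3p, which shares its seed, had 15 and 45 reads (2.18, 1.19 to 4.22), and its log2 changes at days 4 and 8 were -0.48 and -0.97. miR-148b-3p, the third with this seed, had 70 and 91 reads and a ratio of 0.946 (0.685 to 1.31). miR-192-5p, an miRNA of gut and liver, had 9 and 31 reads, and miR-1981-3p 1 and 10, a ratio of 7.28 (1.04 to 316). At day 4 miR-1981-3p had a log2 change of 0.15, and at day 8 it lay lower at -1.12 (ratio 0.398, 0.198 to 0.805). Scaled to total reads miR-152-3p, miR-192-5p and miR-1981-3p lost their call, with log2 changes of 0.85, 1.03 and 2.16.

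There were 9 miRNAs called higher at day 2 with a mean under 10 CPM in a later pair. miR-200b-3p had 1 read with vehicle and 77 with TGFβ at day 2, a ratio of 56.0 (9.76 to 2242). In the later libraries it had 0 and 1 read at day 4 and 0 and 2 at day 8. miR-200a-3p, encoded 785 bases away in the same intron of Ttll10, had 0 and 26 reads, at least 6.31-fold higher, and miR-200c-3p, from another chromosome, 2 and 26 (9.46, 2.37 to 82.3). Members of both loci of the family were thus higher in the TGFβ library of day 2.

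Not every epithelial miRNA followed. miR-203-3p, of skin epithelium, had 20 and 34 reads, miR-205-5p 3 and 0, miR-141-3p 0 and 1 and miR-429-3p 0 and 3. miR-204-5p, known from pigment epithelium and encoded in an intron of Trpm3, had 23 reads in the TGFβ library of day 2, at least 5.58-fold over the vehicle library, and 0 in the other 5 libraries. miR-10b-5p, encoded among the Hoxd genes, had 2 and 49 reads (17.8, 4.68 to 151), while miR-10a-5p, which has the same seed and lies among the Hoxb genes, had 94 and 198 (1.53, 1.19 to 1.98). Later miR-10b-5p had 2 and 2 reads at day 4, and 9 and 7 at day 8, where it lay lower (0.294, 0.0929 to 0.886). miR-375-3p, of pancreatic islets and epithelium, and miR-122-5p, the main liver miRNA, each had 0 and 8 reads, at least 1.94-fold higher, and miR-7b-5p had 2 and 13 (4.73, 1.07 to 43.2).

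For all 9 the TGFβ library of day 2 was the highest of the 6, a rank that their choice largely fixes. A wider search, made after these values were seen, took miRNAs with at least 8 reads and 40 CPM in 1 library and at least 5 times the CPM of each other library. It returned 8 miRNAs for the TGFβ library of day 2 (miR-10b-5p, miR-148a-3p, miR-200a-3p, miR-200b-3p, miR-200c-3p, miR-204-5p, miR-375-3p and miR-452-5p), 1 for the vehicle library of day 8 (miR-146b-3p) and 0 for each of the other 4. The 8 held 312 reads, 0.1744% of the TGFβ library. Of the 7 epithelial markers, with 26 and 167 reads in sum, 3 are themselves among the 8, so that this sum is no separate measurement; the reads of the other 4 are given above. The liver marker miR-122-5p had 0 and 8 reads. The source of these reads was not tested. Without the 8, 35 miRNAs were at least 2-fold higher and 16 were called higher.

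**Figure D4:**
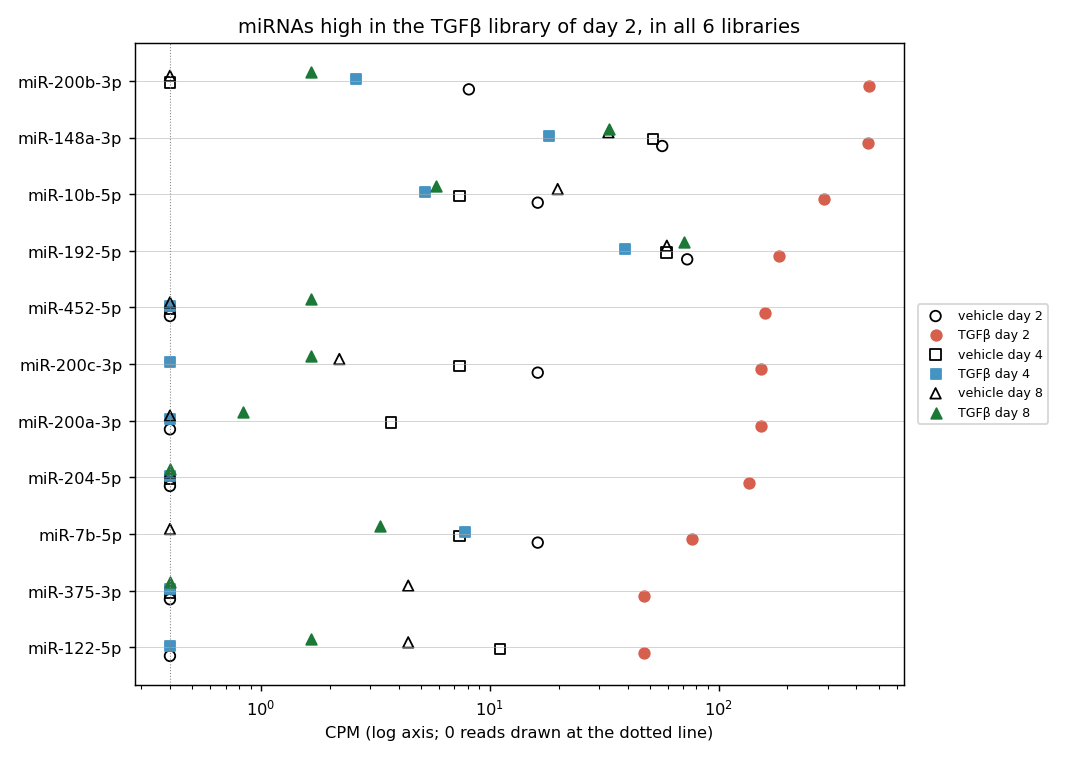
CPM (log axis) in each of the 6 miRNA libraries of the 9 miRNAs called higher at day 2 with few later reads, with miR-148a-3p and miR-192-5p. Libraries at 0 reads are drawn at the dotted line, and the filled red circle of the TGFβ library of day 2 is the highest point in every line.

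Of the 9 differences shared with 1 later day, 7 were decreases. miR-129-2-3p, of a family best known from brain, had 708 and 391 reads, 2.49-fold lower (ratio 0.402, 0.354 to 0.455), with log2 changes of -1.31, -0.01 and -1.27. miR-129-1-3p followed the same course from 16 and 5 reads (-1.98, -0.03 and -1.59), while miR-129-5p, made by both precursors, had 3466 and 4385 reads and lay at -0.12. miR-3068-3p, miR-5115, miR-671-5p, miR-1934-5p and miR-669a-5p were the other 5. On the higher side were let-7e-3p, from 7 to 29 reads, and miR-29b-1-5p, from 1 to 12 (8.73, 1.29 to 373). The single lower miRNA with few later reads was miR-5113, with 12 and 2.

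The reverse view starts from the later days. There were 47 miRNAs called higher at both day 4 and day 8, and 45 of them were measured at day 2. Of these 45, 6 were already called at day 2, 13 were at least 1.5-fold higher, 22 differed by less than 1.5-fold and 10 were at least 1.5-fold lower. Some of these 10 had an interval that included 1, such as miR-345-5p (5 and 4 reads). For others, such as miR-93-5p (76 and 65), it lay below 1. Of all 362 measured miRNAs, 24 (6.63%) were called higher, 80 were at least 1.5-fold higher and 102 at least 1.5-fold lower. Over the 3 days the 45 had median log2 changes of 0.19, 1.75 and 1.87. For 12 of the 45 the day 2 interval lay between 0.5 and 2, so that for these a 2-fold difference at day 2 lay outside counting error.

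miR-199a-5p, of mesenchymal cells, had 1153 and 1796 reads at day 2, a ratio of 1.13 (1.05 to 1.22), and log2 changes of 1.85 and 2.23 later. miR-29a-3p, whose family is known for repressing collagens, had 399 and 397 reads and was lower at day 2 (0.724, 0.629 to 0.834), then had log2 changes of 1.74 and 1.76. miR-5117-5p went from a ratio of 0.564 (0.457 to 0.696) at day 2 to log2 changes of 1.38 and 1.51. These 3 well-counted miRNAs, named after their values were seen, thus had little or none of their later increase at day 2. Others had part of it: 16 of the 45 had a day 2 interval above 1. Among these were miR-181b-5p (1.68, 1.45 to 1.96) and miR-182-5p (1.53, 1.32 to 1.76). miR-5117-3p, the other arm of miR-5117, was also among them (1.49, 1.26 to 1.77).

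On the lower side 35 miRNAs were called at both later days and 34 were measured at day 2. Of these, 4 were called at day 2, 7 were at least 1.5-fold lower, 25 differed by less than 1.5-fold and 2 were at least 1.5-fold higher. Those 2, miR-467a-3p (8 and 18 reads) and miR-330-3p (6 and 15), each had an interval that included 1. Of all 362 measured miRNAs, 25 (6.91%) were called lower, 102 were at least 1.5-fold lower and 80 at least 1.5-fold higher. The medians of the 34 were -0.09, -1.81 and -1.48 at days 2, 4 and 8. These counts and medians include many miR-466, miR-467 and miR-669 members, which share reads and cannot be counted as separate miRNAs. For example, miR-466e-3p and miR-466p-3p had equal counts in every library (2 and 2 reads at day 2). miR-146b-5p had 66 and 93 reads at day 2, a ratio of 1.03 (0.740 to 1.43), and log2 changes of -3.34 and -3.14 later, and miR-1981-5p went from 1.44 (1.25 to 1.66) at day 2 to -1.13 and -1.28 on the log2 scale.

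Across the 121 miRNAs measured at all 3 days with 100 or more reads at day 2, Pearson's r of the log2 changes was 0.33 for day 2 with day 4, 0.41 for day 2 with day 8 and 0.87 for day 4 with day 8. Over all 325 measured at the 3 days, low counts included, it was 0.24, 0.22 and 0.77. These describe miRNAs that share 2 libraries per day and are not independent replicates.

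**Figure D5:**
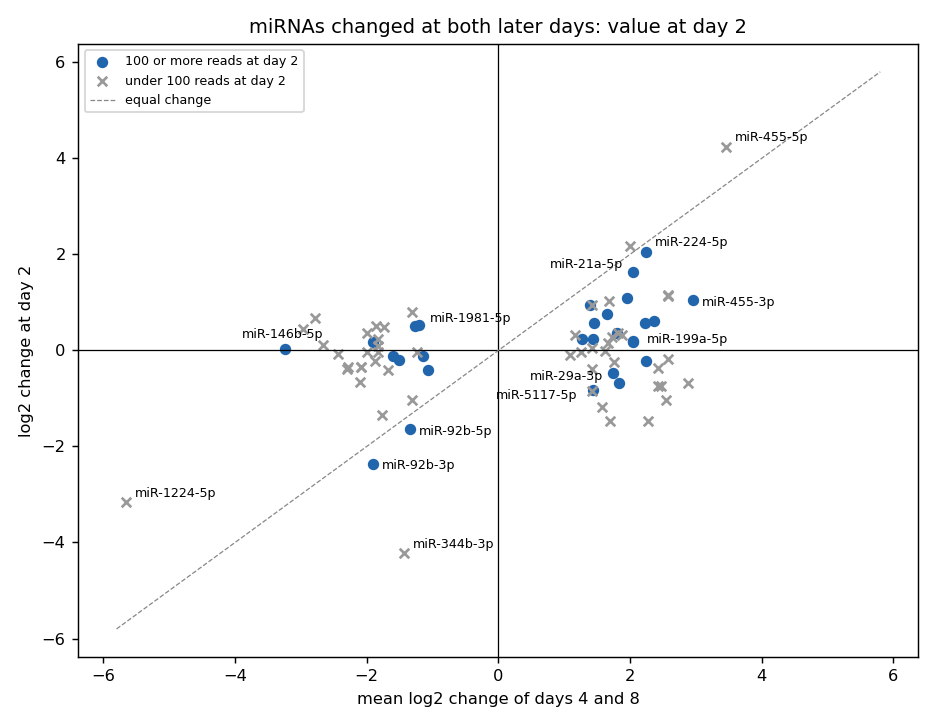
Log2 change at day 2 (vertical axis) of the miRNAs called at both later days and measured at day 2, against the mean of their log2 changes at days 4 and 8 (horizontal axis). Filled points had 100 or more reads at day 2, the dashed line marks equal change, and most points lie near 0 at day 2 (medians 0.19 and -0.09 for the higher and lower sets).

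Lists of miRNA families are described by counts and medians, beside the median of -0.04 over all measured miRNAs. In all, 80 measured miRNAs were at least 1.5-fold higher and 102 at least 1.5-fold lower. The miR-23/27/24 list had 0 of 10 members higher and 5 lower by that limit, with a median of -0.60. Its 3 called members are the miR-23 decreases picked above, so these values are no separate result. The 6 measured mirtrons, miRNAs whose precursors are released by splicing, had 0 higher and 3 lower (median -0.65), and the Sfmbt2 cluster (the miR-466, miR-467, miR-669 and miR-297 miRNAs), whose near-identical members share reads, had 4 of 32 higher and 11 lower (-0.34). Of the 32, 0 were called higher and 2 lower, beside 6.63% and 6.91% of all measured miRNAs. Their median was -0.07 with a mean of 50 or more CPM and -0.16 with DESeq2 size factors.

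The epithelial list, of 14 miRNAs, had 4 of 6 measured members higher and 1 lower. Its median was 2.39, or 2.25 where a 0 is set to its bound. All the higher members were of the miR-200 family. miR-200a-3p, miR-200b-3p and miR-200a-5p (1 and 7 reads) reached 10 CPM in the TGFβ library alone, so the filter largely fixed their side. The 3 called members are the miR-200 miRNAs picked above, so the median is no separate result. It was 1.52 with no filter beyond 1 read and 4.01 with a mean of 50 or more CPM. For the list of liver and gut miRNAs all 4 measured members were higher, with a median of 2.38, or 0.96 with the bounds. Of its 15 listed miRNAs only these 4 had a read. miR-122-5p, miR-375-3p and miR-194-5p (1 and 3 reads, ratio interval 0.175 to 115) reached 10 CPM in the TGFβ library alone, so the filter largely fixed their side. The median was 1.27 with a mean of 50 or more CPM and 3.35 with a prior count of 0.5. The miR-17-92 cluster and its paralogs, known for driving proliferation, had 3 of 14 higher and 3 lower (median 0.13, and -0.11 scaled to total reads). let-7, known for repressing growth-promoting mRNAs, had 3 of 17 higher and 1 lower (0.23, and -0.03 scaled to total reads), and its members share reads. Each of those past 1.5-fold was a 3p arm: let-7e-3p, let-7a-1-3p and let-7c-2-3p higher and let-7i-3p lower. let-7a-1-3p and let-7c-2-3p had equal counts in every library (2 and 6 reads at day 2), so they cannot be counted apart. No 5p arm reached 1.5-fold, the highest being let-7f-5p at a log2 change of 0.56.

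miRNAs reported to promote fibrosis had 5 of 20 higher and 3 lower (median 0.12), and those reported to oppose it 11 of 45 higher and 6 lower (0.16); scaled to total reads the medians were -0.14 and -0.07. In both lists the few called members were those named above: miR-21a-5p and miR-192-5p higher and miR-199b-5p lower among the promoting, and the miR-200 members, let-7e-3p and miR-29b-1-5p higher and let-7i-3p lower among the opposing. The lists did not separate the arms of a precursor. The opposite arms of these let-7 and miR-29 members were not called: let-7e-5p lay at 0.47, let-7i-5p at 0.21 and miR-29b-3p at 0.10. miR-29a-3p lay at -0.46. The called let-7 and miR-29 members thus do not describe their families. The imprinted Dlk1-Dio3 cluster had 5 of 100 listed miRNAs with a read and 0 measured, and the 20 listed miRNAs of embryonic stem cells had 0 reads. For 74 measured miRNAs with numbers of 1000 or above, 1 was called higher and 7 lower, beside 6.63% and 6.91% of all measured miRNAs.

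Members of 1 seed took different courses at day 2. With the seed AUUGCAC, miR-92b-3p was 5.14-fold lower, while miR-92a-3p had 3677 and 5453 reads (1.08, 1.04 to 1.13) and miR-25-3p 202 and 414 (1.49, 1.26 to 1.77). miR-7a-5p, with the seed GGAAGAC of miR-7b-5p, had 422 and 729 reads (1.26, 1.11 to 1.42). miR-92a-3p thus had more reads than miR-92b-3p in both libraries, by a wider margin with TGFβ.

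Arms of 1 precursor also differed. Both arms were measured and matched to RefSeq for 73 precursors, of which 17 had a called arm; miR-23b, whose 3p arm was not matched, is outside this count, and both of its arms were called lower. In 2 of the 17, miR-455 and miR-92b, both arms were called in 1 direction, in 8 the other arm lay on the same side of 0, in 7 it lay on the other side, and in 0 both were called in opposite directions. miR-125b-1-3p (log2 change 1.09) stood beside miR-125b-5p at -0.07, which a second precursor also makes. let-7i-3p (-2.08, 10 reads in the pair) stood beside let-7i-5p at 0.21 with 17498 reads, and in the authors' deposited table the gene Mirlet7i had a ratio of 0.0588. The gene Mir125b-1 stood at 3.18 in the authors' deposited table at day 2. At day 4 miRNA genes did not all lie on the side of their miRNA in the authors' deposited table: Mirlet7i stood at 0.111, with let-7i-3p at a log2 change of 0.84, and Mir29b-1 at 0.143, with miR-29b-1-5p at 2.55.

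Of the 49 called miRNAs, 40 had a position in RefSeq and 29 lay inside a gene on the same strand, 24 in introns and 5 in exons. Hosts of 3 of them were among the 998 genes of the authors' deposited table for day 2: Col27a1 for both arms of miR-455 and A230057D06Rik for miR-344b-3p, each on the side of its miRNA. Genes outside that table were not shown to be unchanged.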

How the data were processed

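The miRNA table deposited by the authors holds whole read counts per mature miRNA, with no normalization; totals of the day 2 pair were 108716 and 178877. RPM per mature miRNA and precursor come in another table that the authors deposited, used only as an alternative. The authors' deposited mRNA tables hold 1 ratio (fold change) for each gene, without depth or a direction in the header; they were read as TGFβ over vehicle, and the other reading would invert each. Per the submitters' processing notes, edgeR 3.9 and build mm10 belong to the workflow, their part in it unstated; for the aligner and the counter, nothing is given in the sources used here. Per the labels' protocols, libraries were made with a TruSeq RNA kit and each condition had n of 1.

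Reads were scaled with TMM factors over the 6 libraries (edgeR 4.0.16, R 4.3.3) from the 309 miRNAs left by edgeR's expression filter, 1.14 and 0.948 for the pair. Log2 changes used a prior count of 2, and ratios carry exact conditional binomial 95% intervals (scipy 1.17.1). The limit for a count of 0 was 3 reads per library. Alternatives were total counts, TMM on the pair, DESeq2 1.42.0 size factors, a prior count of 0.5, other filters, a 2-fold limit at the later days and the RPM table. miRNAs were named by rank of day 2 change, by course, by abundance and by list (up to 4 per list); seed partners, precursor neighbours and the well-counted miRNAs of the later set were named after their values were seen. The members and lists were chosen with earlier results of these data known. miRNAs made by several precursors, and the families of let-7, miR-199, miR-669, miR-467 and miR-466, have reads in common, which leaves each of them uncertain. Sequences were taken from RefSeq; those of some miRNAs named here are not given.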

Additional observations from a re-analysis of the deposited data

Results flagged for a closer look

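miR-199b-5p lay on opposite sides at day 2 and later: TGFβ over vehicle gave a log2 change of -1.17 at day 2 (22 and 13 reads), of 1.57 at day 4 (50 and 215 reads) and of 1.57 at day 8 (165 and 1313 reads). The difference between the days was not tested, since each has 1 library per condition.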

How the results depend on the processing

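Scaled to total counts, 82 miRNAs were at least 2-fold lower (51 in the values reported), 14 were called higher (24) and 45 lower (25); the RPM table, which gives no counts for an interval, gave 30 and 76. With a mean of 50 or more CPM, 19 were at least 2-fold higher and 23 lower, and with no filter beyond 1 read 116 and 96. Without the 8 miRNAs seen mostly in the TGFβ library of day 2, an alternative chosen after seeing the data, those with few later reads numbered 3 in place of 10. Of the 49 called, 36 (14 higher, 22 lower) were called under each scaling, the other prior count and no filter. Total counts removed the call of 10 higher miRNAs: miR-125b-1-3p, miR-152-3p, miR-192-5p, miR-195a-3p, miR-1981-3p, miR-206-3p, miR-25-5p, miR-350-5p, miR-455-3p and miR-7b-5p; some, such as miR-1981-3p at a log2 change of 2.16, stayed past 2-fold and lost only the interval. TMM factors of the pair removed miR-23a-3p, miR-324-3p and miR-669a-5p, and DESeq2 size factors removed miR-669a-5p. A limit of 2-fold at the later days left 10 lasting differences and 20 at day 2 only. Of 290 values for 58 named miRNAs under these alternatives, 253 moved by less than their interval, 37 moved by more and 0 changed side while called. Leaving out a replicate was not possible with 1 library per condition. The RPM table was not run for the lists, the courses over days or the seed neighbours. At this depth 190 of 362 measured miRNAs had an interval that included 1 and reached 2-fold.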
